A study of Rattus norvegicus with 28 samples.

Results

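The insulin-like growth factor (IGF) system was examined in cultured rat microglia and astrocytes through 10 genes, chosen by their symbols. They were the ligand genes Igf1 and Igf2, the receptor gene Igf1r, the binding protein genes Igfbp2, Igfbp3, Igfbp4, Igfbp5 and Igfbp7, and the receptor substrate genes Irs1 and Irs2. All 10 were listed in every count table, among 23139 genes in the microglial tables, 20268 in the astrocyte tables of the ENV set and 20056 in those of the LPS set. IGF ligands bind a receptor tyrosine kinase at the cell surface, which phosphorylates the substrates Irs1 and Irs2 and so starts the PI3K-AKT and RAS-MAPK pathways. Secreted binding proteins hold the ligands outside the cell and set how much reaches the receptor. In the brain, microglia-derived Igf1 is known as a survival and myelination factor, and Igfbp2 as a product of astrocytes.

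Messenger RNA was sequenced in 28 libraries of glia grown from cortices of Wistar rats taken at postnatal day 1. Microglia were stimulated with ENV (1 µg/ml) or its buffer, and with LPS (100 ng/ml) or H2O, 3 libraries in each of the 4 groups. Astrocytes received the same 4 treatments, with 4 libraries a group. ENV is the recombinant envelope protein of the human endogenous retrovirus HERV-W, and LPS is a component of bacterial walls sensed by TLR4. Both cell types grew for 10 days in flasks and were kept in medium with 10% fetal calf serum, which itself holds growth factors, in every group. Microglia were shaken off, sorted with CD11b/c beads and stimulated 1 day after isolation, whereas astrocytes were stimulated 3 days after isolation. Cell type therefore cannot be told apart from the isolation, the days in culture or the count table. How long the stimulus lasted is not stated, nor whether libraries of a group came from separate litters, so p-values measure the spread between these libraries.

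The 12 microglial libraries held between 26513999 and 42724111 counts each, and the 16 astrocyte libraries between 23742228 and 35326938. Levels are given as CPM, the count of a gene scaled by the total of its library. Microglia and macrophage markers followed the labelled cell types. The 14 of them summed to between 6011 and 13340 CPM in the microglial libraries and between 149.8 and 927.4 CPM in the astrocyte libraries, with none at 0 in any group. Astrocyte markers summed to between 3577 and 15950 CPM in astrocytes and between 1463 and 4949 CPM in microglia, where Gjb6 was at 0, and these ranges overlap. Taken singly, 11 of the 12 were lower in microglia in either vehicle (edgeR adjusted p under 0.05), all but Glul. Their median log2 difference was -6.56 with buffer and -7.4 with H2O, and 36.4% and 37.7% of all tested genes were lower. Fibroblast and mural cell markers reached 139.3 CPM in microglia and 11020 CPM in astrocytes. In the astrocyte buffer libraries they summed to 8098, 11020, 10650 and 2833 CPM, and astrocyte markers to 10110, 10440, 11080 and 15950 CPM. Endothelial markers reached 252.8 CPM in microglia and 13.26 CPM in astrocytes, oligodendrocyte lineage markers 243.8 and 279.1 CPM, neuron markers 36.56 and 852.4 CPM, and ependymal and choroid plexus markers 3.835 and 26.74 CPM. Microglial LPS library 3 stood apart, with a microglial marker sum of 6011 CPM, whereas LPS libraries 1 and 2 had 10830 and 9315 CPM. Libraries 3 and 4 of the astrocyte ENV and LPS sets were closer to each other than replicates were: the SD of the log2 difference over genes was 0.163 between buffer 4 and H2O 4, 0.176 between buffer 3 and H2O 3, 0.186 between ENV 4 and LPS 4 and 0.233 between ENV 3 and LPS 3. Any pair of astrocyte libraries of one group differed by an SD of 0.276 to 0.914. Whether they share a culture is not given, so the ENV and LPS responses of astrocytes are not taken as separate evidence.

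Changes are log2 fold changes with their standard error from the edgeR quasi-likelihood test, and a gene was called at a Benjamini-Hochberg adjusted p under 0.05 over all genes tested in a comparison. With ENV, 2 of 8 tested IGF genes were called in microglia (Irs2 higher, Igf1 lower), where 30.9% of 12844 tested genes were called. LPS gave 3 of 9 in microglia (Irs2 higher, Igf1 and Irs1 lower), against 29.8% of 12229 genes. In astrocytes ENV gave 3 of 10, all lower (Igf1, Igfbp2 and Irs2), against 17.9% of 14941 genes. LPS gave 1 of 9 in astrocytes, Igf1, which was lower, against 5.34% of 14710 genes. The median log2 change of the tested IGF genes was -0.10 (microglia, ENV), -1.11 (microglia, LPS), -0.53 (astrocytes, ENV) and -0.65 (astrocytes, LPS), and the median over all genes lay between -0.03 and 0.03. In microglia these shares lay near those of all genes, so the results below are those of single genes. Libraries of the same replicate number deviated together in all 4 comparisons, and with the number as a block more genes were called in each of them. In microglia the block gave 4 of 8 IGF genes with ENV, adding Igfbp3 (higher) and Irs1 (lower), against 39.2% of all genes, and 4 of 9 with LPS, adding Igfbp2 (lower), against 30.3%. In astrocytes it gave 4 of 10 with ENV, adding Igf2 (lower), against 29.1%, and 4 of 9 with LPS, adding Igfbp2, Igfbp7 and Irs2 (lower), against 17.7%.

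**Figure D1:**
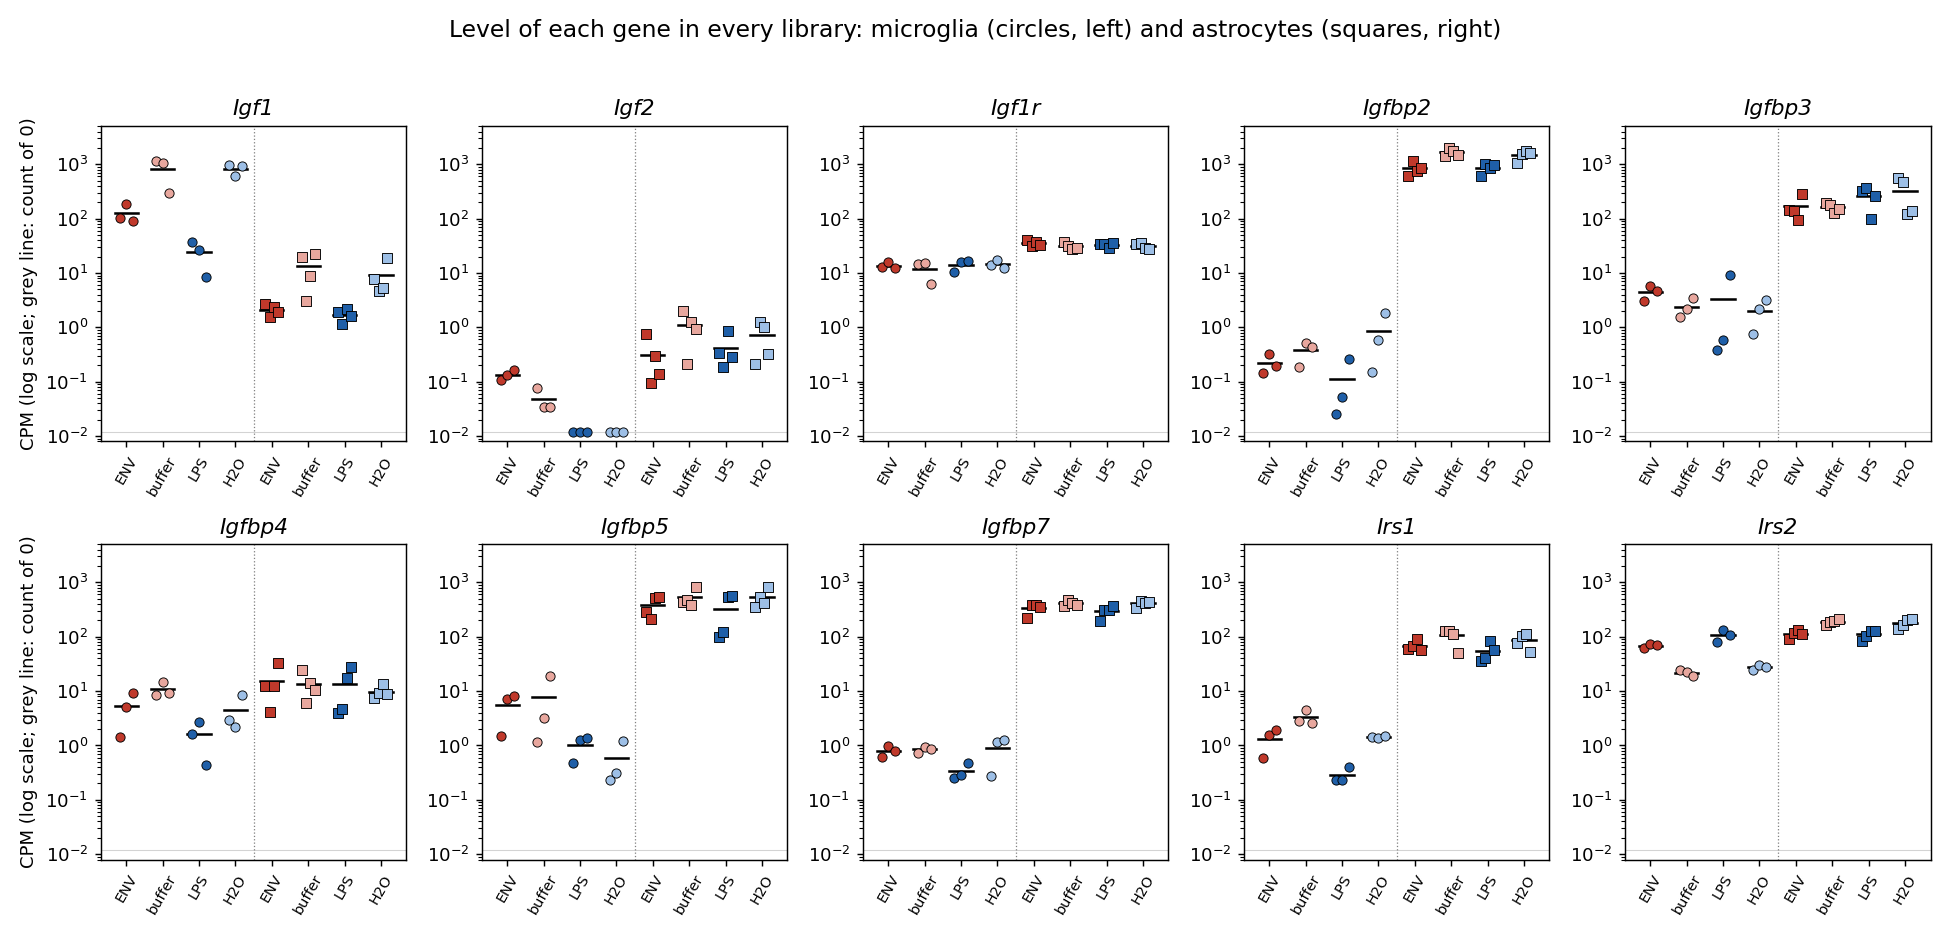
Level of the 10 IGF genes in every library, as CPM on a log scale; circles are microglia, squares astrocytes, black lines group means, and points on the grey line have a count of 0. Igf1 was high in vehicle-treated microglia (290.6 to 1172 CPM), whereas Igfbp2, Igfbp3, Igfbp5, Igfbp7 and Irs1 were at their highest in astrocytes.

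Without stimulus, the cell types held different parts of the system. Igf1 was higher in microglia than in astrocytes, and most of the other genes were lower. Of 10 genes tested between buffer-treated cultures, 1 was higher and 8 were lower in microglia. Over all genes 70% of 12984 were called and 36.4% were called lower. Between H2O-treated cultures 1 was higher and 7 of 9 were lower, where 70.9% of 12916 genes were called and 37.7% were called lower. The median of all genes in the H2O comparison was -0.11, which was not subtracted from the H2O values below.

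Igf1 encodes the main IGF ligand of the adult body. It had 1172, 1036 and 291 CPM in microglia with buffer, against 20.01, 3.04, 8.69 and 22.7 CPM in astrocytes with buffer. With H2O it had 954, 604 and 932 CPM in microglia and 7.65, 4.62, 5.28 and 19.0 CPM in astrocytes. The groups did not overlap in either vehicle, and the log2 difference of microglia over astrocytes was 6.31 ± 0.79 with buffer (adjusted p = 1.92e-04) and 7.03 ± 0.59 with H2O (adjusted p = 5.52e-05). Igf1 was lower with both stimuli in the microglial and in the astrocyte cultures, and it had the most negative change among the tested IGF genes in each of the 4 comparisons. The order of its group means was microglia with buffer, microglia with H2O, microglia with ENV, microglia with LPS, then astrocytes with buffer, H2O, ENV and LPS. Neighbours overlapped in that order in 4 of the 7 steps, namely between the microglial vehicles, between microglia with LPS and astrocytes with buffer, between the astrocyte vehicles, and between astrocytes with ENV and with LPS.

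With ENV, microglial Igf1 was at 102, 184 and 91.0 CPM, against 1172, 1036 and 291 CPM with buffer. Buffer library 3 was the lowest of its group, yet the groups did not overlap and Igf1 was lower in 3 of 3 same-numbered pairs. The 14 microglial markers summed to 10020 to 12060 CPM with ENV and 10260 to 13340 CPM with buffer. The change was -2.53 ± 0.53 (adjusted p = 0.0123), which moved to 0.0543 without ENV library 1. With LPS, Igf1 was at 37.9, 26.03 and 8.61 CPM, against 954, 604 and 932 CPM with H2O. The change was -4.78 ± 0.61 (adjusted p = 0.00464), and the mean with LPS was 2.91% of that with H2O. The microglial markers summed to 6011 to 10830 CPM with LPS and 10800 to 12770 CPM with H2O. LPS library 3, which stood apart, had the lowest level of Igf1, and without pair 3 the change was -4.32 ± 0.36 (adjusted p = 0.00184). The Igf1 response to ENV minus that to LPS was 2.30 ± 0.81 in microglia (edgeR adjusted p = 0.689), so a difference between the stimuli was not called.

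In the astrocyte cultures Igf1 was at 2.66, 1.57, 2.41 and 1.88 CPM with ENV, against 20.01, 3.04, 8.69 and 22.7 CPM with buffer. It was lower in 4 of 4 pairs (-2.64 ± 0.56, adjusted p = 0.0154, edgeR), and the groups did not overlap. With LPS it was at 1.94, 1.18, 2.14 and 1.59 CPM, against 7.65, 4.62, 5.28 and 19.0 CPM with H2O. The change was -2.37 ± 0.48 (adjusted p = 0.0294, edgeR), lower in 4 of 4 pairs. Leaving out LPS library 1, 2, 3 or 4 or H2O library 1 or 3 ended this call (adjusted p between 0.0596 and 0.0766), and with libraries 3 and 4 alone it was -2.64 (adjusted p = 0.105).

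These astrocyte levels stood beside transcripts of microglia. The 14 microglial markers summed to 153.2 to 485.0 CPM with ENV and 222.3 to 927.4 CPM with buffer, and to 149.8 to 456.1 CPM with LPS and 338.2 to 890.8 CPM with H2O. Buffer libraries 1 and 4 and H2O library 4 had the highest Igf1 and also the highest marker sums, as the plot of Igf1 against marker transcripts shows. Set against the marker sum of its own library, Igf1 was 0.388% to 1.03% with ENV and 1.37% to 2.61% with buffer, ranges that do not overlap. With LPS it was 0.349% to 1.13% and with H2O 0.877% to 2.13%, ranges that overlap. Fewer cells of a type and less RNA per cell cannot be told apart in these bulk libraries, and the part that residual microglia have in the astrocyte level of Igf1 was not tested.

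**Figure D2:**
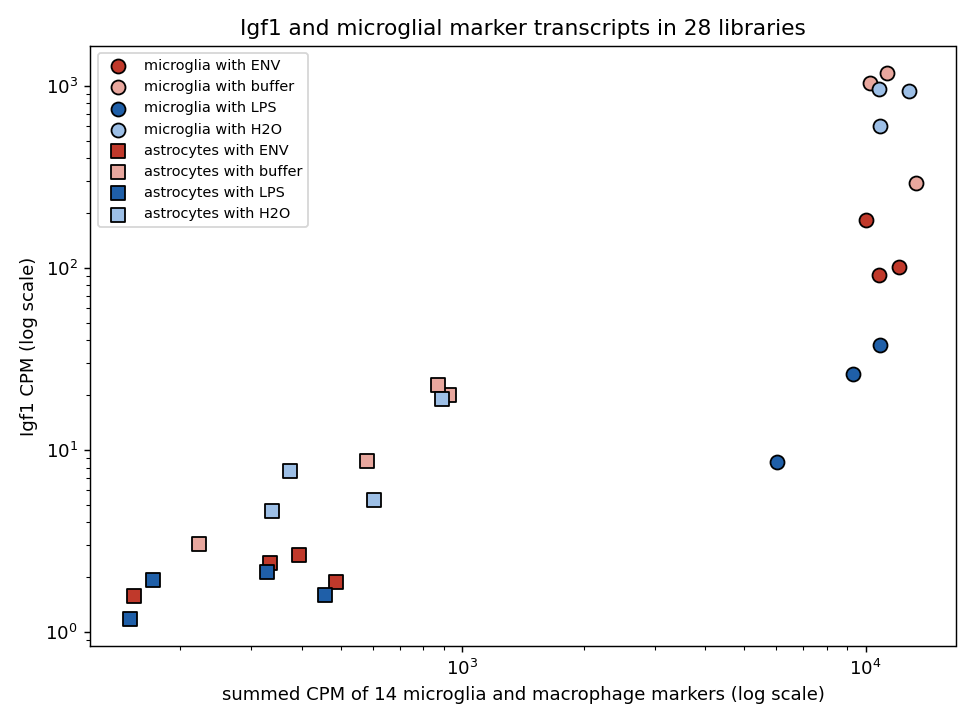
Igf1 CPM against the summed CPM of 14 microglia and macrophage markers in each of 28 libraries, both on log scales, with microglia as circles and astrocytes as squares. Among astrocyte libraries the 3 with the highest Igf1 (19.0 to 22.7 CPM) are also those with the highest marker sums, and in microglia Igf1 falls over a wide range while the marker sum is 6011 CPM or more.

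The Igf1 response was also compared between cell types. For ENV the response in microglia minus that in astrocytes was 0.12 ± 0.79 (adjusted p = 0.955), with a 95% interval of -1.60 to 1.84. For LPS it was -2.45 ± 0.74 (adjusted p = 0.0493), a larger fall in microglia. That call was lost on leaving out any of 12 of the 14 libraries in turn (adjusted p up to 0.124), with DESeq2 size factors (0.0662), with no filter on low counts (0.0527) and without microglial pair 3 (0.103). In the LPS comparison between cell types the median of all genes was -0.12. Of the IGF genes, 1 of 10 was called in the ENV difference between cell types, Irs2, where 14.9% of 13378 genes were called, and 2 of 9 in the LPS difference, Igf1 and Irs2, where 12.5% of 13284 genes were called. Igf2, at 0 counts in all microglial libraries of the LPS set, could not be estimated there and is not among the 9. With the block 2 of 10 were called for ENV (Igf2 and Irs2, against 24.8% of all genes) and 3 of 9 for LPS (Igf1, Igfbp2 and Irs2, against 22.8%). Igf2 and Igfbp2 were too low to be tested in microglia with ENV, and entered the ENV difference through their astrocyte counts. The Igf2 call with the block is therefore not taken as a microglial response.

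By the Pearson correlation of log2(CPM + 1) over the 12 microglial libraries, the genes most like Igf1 among 8367 of at least 10 mean CPM were Cenpc (0.987), which encodes a centromere protein, Cux1 (0.983), a homeobox factor, and Sun1 (0.981), a protein of the inner nuclear membrane. These libraries share their vehicles and stimuli, and the values are descriptions.

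The RefSeq promoter window of Igf1 (250 bases before to 50 after the gene's start, assembly GRCr8, which is later than the build of the counts) is shown because the transcript moved furthest of the system, with CpG dinucleotides in capitals. It lies at chr7:24172282-24172581 on the plus strand, and is 48.3% G or C with 7 CpG.
Igf1: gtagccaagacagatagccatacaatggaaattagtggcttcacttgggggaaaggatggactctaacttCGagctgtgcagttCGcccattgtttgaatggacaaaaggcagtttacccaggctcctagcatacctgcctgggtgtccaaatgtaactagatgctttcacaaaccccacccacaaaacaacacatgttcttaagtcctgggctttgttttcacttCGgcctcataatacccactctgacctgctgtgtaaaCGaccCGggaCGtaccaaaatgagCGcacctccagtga
Over all 33469 RefSeq promoter windows the median was 51.7% G or C and 7 CpG, so that of Igf1 is not rich in CpG. Both strands of the windows of 9 matched IGF genes (10 windows, as Igf2 has 2) were searched for 4 motifs. TATAAA, the TATA box, was in that of Igfbp4, and is in 14.2% of all windows. TTGCNNAA, a core of C/EBP sites, was in 1 of Igf2's, and is in 10.6% of all. Neither GTAAACA (FoxO) nor the NF-kB motif, held by 3.78% and 0.362% of all windows, was found in them. These are matches of letters, and their absence from a window says nothing of the factor.

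Igf2, the ligand of fetal growth, was near the limit of detection. In microglia it had 3, 4 and 5 counts with ENV and 2, 1 and 1 counts with buffer, and 0 counts in all libraries with LPS and with H2O. A count of 0 over a whole group allows up to 0.0259 CPM with LPS and 0.0243 CPM with H2O (3 counts, counting error only, since reads carried no molecular identifiers). In astrocytes Igf2 was at 0.744, 0.0943, 0.293 and 0.137 CPM with ENV, against 2.00, 0.212, 1.25 and 0.934 CPM with buffer. The groups overlapped, though each pair was lower with ENV, and the change of -1.77 ± 0.77 was not called (adjusted p = 0.149, edgeR) unless the replicate number was a block (-1.83, adjusted p = 0.0114). With LPS it was at 0.337, 0.190, 0.871 and 0.286 CPM, against 0.210, 1.27, 1.03 and 0.331 CPM with H2O, and was too low to be tested. Between buffer-treated cultures Igf2 was lower in microglia (-4.05 ± 0.91, adjusted p = 0.00432). The ENV response in microglia minus astrocytes was 3.40 ± 1.29 (adjusted p = 0.095, and 0.0127 with the block). It rested on at most 5 counts in a microglial library, too low for a test in microglia. Over the 16 astrocyte libraries, the highest correlations with Igf2 were those of Astn1 (0.734), Aqp1 (0.732) and Vxn (0.724), among 10095 genes.

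Igf1r, which encodes the receptor of both ligands, was called in no comparison of a stimulus with its vehicle. It had 12.8, 16.2 and 12.3 CPM in microglia with ENV and 14.8, 15.1 and 6.20 CPM with buffer, and 10.2, 16.1 and 16.4 CPM with LPS and 13.9, 17.5 and 12.2 CPM with H2O. In astrocytes it lay between 31.98 and 41.3 CPM with ENV and 27.7 and 37.7 CPM with buffer, and between 28.9 and 36.4 CPM with LPS and 28.1 and 35.2 CPM with H2O. Each stimulated group overlapped its vehicle. The log2 changes were 0.40 ± 0.32 and 0.26 ± 0.23 in microglia with ENV and LPS, and 0.21 ± 0.14 and 0.10 ± 0.13 in astrocytes, none called (edgeR adjusted p between 0.334 and 0.728). The 95% intervals reached from -0.36 to 1.17 for ENV in microglia and from -0.10 to 0.52 for ENV in astrocytes. Microglia had less of the transcript than astrocytes with buffer (-1.02 ± 0.30, adjusted p = 0.0149) and with H2O (-0.60 ± 0.18, adjusted p = 0.0182, and 0.0601 without microglial H2O library 1).

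**Figure D3:**
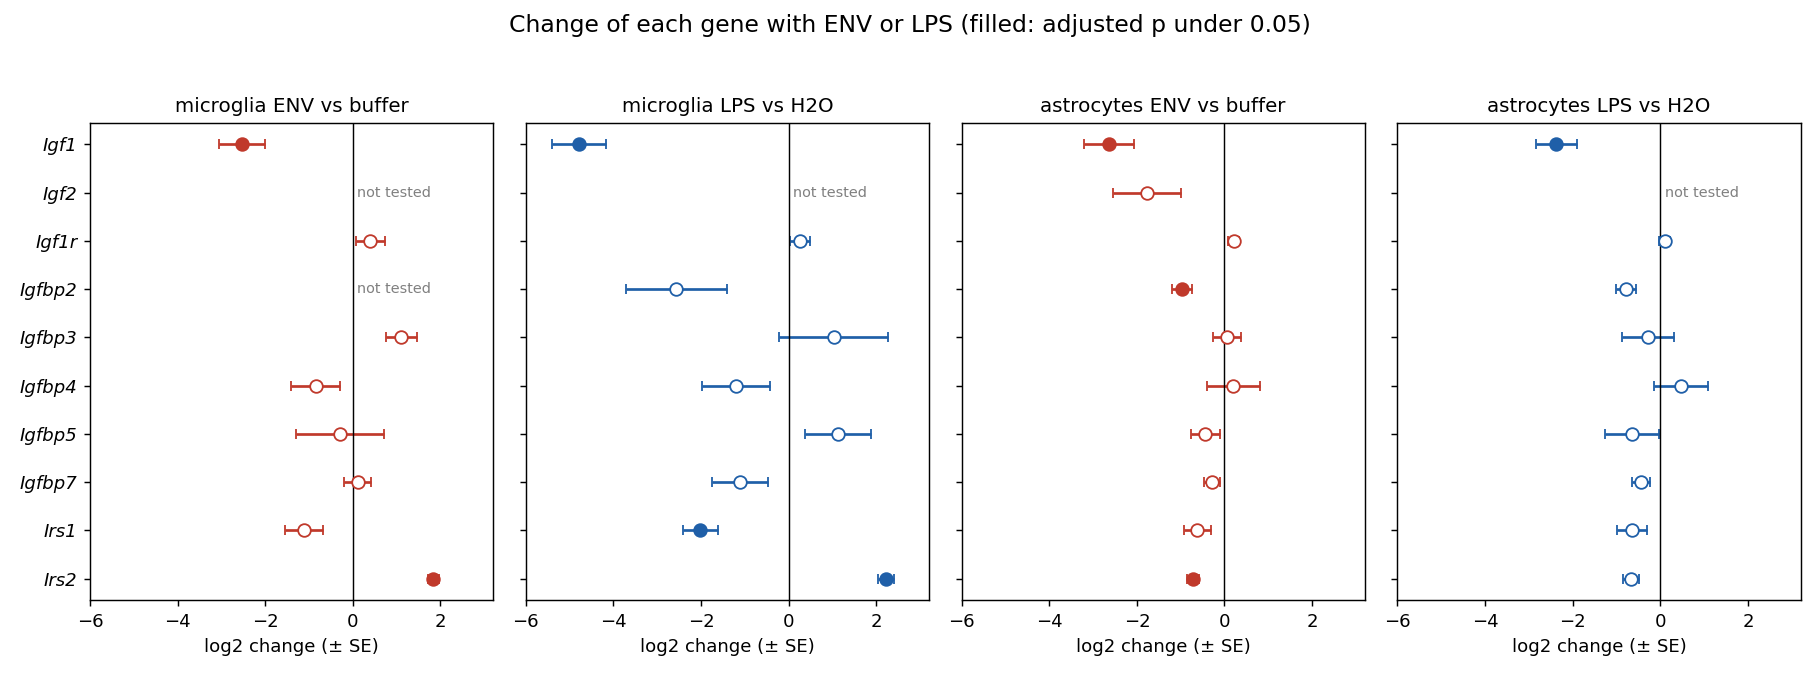
Log2 change of each IGF gene (points) with its standard error (bars) in the 4 stimulus comparisons, from edgeR; filled points have an adjusted p under 0.05. Igf1 lies furthest to the left in every panel (-2.37 to -4.78), and Irs2 lies on the right in microglia and on the left in astrocytes.

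The binding protein genes were mainly transcripts of the astrocyte cultures. Igfbp2 had 1404, 2021, 1736 and 1481 CPM in astrocytes with buffer and at most 0.525 CPM in microglia with buffer, a log2 difference of microglia over astrocytes of -11.69 ± 0.41 (adjusted p = 5.86e-07). For Igfbp7, which binds IGFs weakly and acts largely at the vessel wall and cell surface, the difference was -8.55 ± 0.22, for Igfbp3 -5.72 ± 0.35 and for Igfbp5 -5.67 ± 1.00, each with an adjusted p of 0.00124 or less (edgeR). With H2O these 4 differences were -10.27 ± 0.91, -8.30 ± 0.56, -6.81 ± 0.93 and -9.31 ± 0.76 (Igfbp2, Igfbp7, Igfbp3 and Igfbp5; adjusted p of 5.14e-04 or less). Igfbp4, whose product blocks IGF action until the protease Pappa cuts it, was the exception: it was at 8.56, 14.5 and 9.20 CPM in microglia and 24.0, 6.12, 14.04 and 10.5 CPM in astrocytes with buffer, groups that overlapped (0.02 ± 0.43, adjusted p = 0.962). With H2O its difference was -0.61 ± 0.50 (adjusted p = 0.304), and -1.42 (adjusted p = 0.00593) without microglial H2O library 3, where Igfbp4 was at 8.66 CPM against 2.90 and 2.16 CPM in the other two.

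Igfbp2 encodes the binding protein abundant in astrocytes and cerebrospinal fluid, and it was lower in astrocyte cultures with ENV. It was at 615, 1170, 762 and 843 CPM with ENV, against 1404, 2021, 1736 and 1481 CPM with buffer. Every ENV library lay below every buffer library, each pair was lower, and the mean with ENV was 51.0% of that with buffer. The change was -0.96 ± 0.23 (adjusted p = 0.0215), and leaving out ENV library 1 or 3 or buffer library 2 or 3 ended the call (adjusted p between 0.0505 and 0.0600). In LPS-treated astrocytes Igfbp2 was at 613, 1018, 838 and 955 CPM, against 1052, 1526, 1792 and 1601 CPM with H2O. These groups did not overlap either, and each pair was lower, with a change of -0.78 ± 0.22 that was not called (adjusted p = 0.0842) but was with the replicate number as a block (-0.78, adjusted p = 0.00744), in the joint fit of the 4 astrocyte groups (0.0379) and with DESeq2 (0.0101). The joint fit counts libraries 3 and 4 of the ENV and LPS sets as separate libraries, close as they are. Astrocyte markers summed to 5835 to 10020 CPM with ENV and 10110 to 15950 CPM with buffer, and to 3577 to 9991 CPM with LPS and 7285 to 15900 CPM with H2O, and their part in the fall of Igfbp2 was not tested. Among 10094 genes, Itgb5 (0.973), an integrin chain, Col8a2 (0.965), a short-chain collagen, and Entrep1 (0.953) followed Igfbp2 most closely over the 16 astrocyte libraries.

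In microglia Igfbp2 had 10 counts or fewer in each library with ENV and with LPS, against 5, 15 and 13 counts with buffer and 6, 24 and 78 with H2O. With LPS the change was -2.56 ± 1.15 (adjusted p = 0.139), or -2.61 (adjusted p = 0.0212) with the block. H2O library 3 held most of the H2O counts, and its oligodendrocyte lineage marker sum was 129.7 CPM, while H2O libraries 1 and 2 had 15.62 and 16.1 CPM. The part of other cells in this value was not tested.

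Igfbp5 binds IGFs in the extracellular matrix, and its gene is the chromosome neighbour of Igfbp2, with 0 protein-coding genes between them in GRCr8 and on the opposite strand. Both promoter windows are shown, again with CpG in capitals, because Igfbp2 was called lower in astrocytes with ENV while its neighbour Igfbp5 was not called. The difference between the 2 genes was not tested. The Igfbp2 window is 66.7% G or C with 20 CpG (chr9:81864561-81864860, plus strand) and that of Igfbp5 50.7% with 11 CpG (chr9:81914138-81914437, minus strand).
Igfbp2: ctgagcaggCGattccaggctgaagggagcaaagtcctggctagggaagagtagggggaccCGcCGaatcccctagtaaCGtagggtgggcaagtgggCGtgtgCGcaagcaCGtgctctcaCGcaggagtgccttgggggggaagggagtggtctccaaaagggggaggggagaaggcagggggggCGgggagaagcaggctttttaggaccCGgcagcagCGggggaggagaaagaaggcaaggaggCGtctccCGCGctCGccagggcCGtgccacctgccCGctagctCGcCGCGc
Igfbp5: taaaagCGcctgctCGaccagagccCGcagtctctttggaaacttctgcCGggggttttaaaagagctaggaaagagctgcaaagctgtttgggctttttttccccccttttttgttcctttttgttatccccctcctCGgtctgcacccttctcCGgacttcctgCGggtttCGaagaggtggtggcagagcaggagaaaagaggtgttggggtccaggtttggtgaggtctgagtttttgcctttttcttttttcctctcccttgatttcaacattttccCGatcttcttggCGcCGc
Igfbp5 was at 287, 215, 511 and 531 CPM in astrocytes with ENV, against 428, 484, 391 and 813 CPM with buffer. It was at 99.9, 120, 536 and 565 CPM with LPS, against 351, 537, 425 and 816 CPM with H2O. Libraries 1 and 2 were low with LPS, below every H2O library, while libraries 3 and 4 lay within the range of H2O. Neither change was called over all pairs (-0.43 ± 0.34, adjusted p = 0.419 with ENV, and -0.65 ± 0.61, adjusted p = 0.614 with LPS, edgeR). With libraries 1 and 2 alone Igfbp5 was lower with LPS (-2.04 ± 0.25, adjusted p = 0.00983), and with libraries 3 and 4 alone the change was -0.12 ± 0.32 (adjusted p = 0.851). Each split leaves 2 libraries a group. LPS libraries 1 and 2 differed by an SD of the log2 difference of only 0.276, and H2O libraries 1 and 2 by 0.287. The p-values of libraries 1 and 2 alone rest on that small spread, here and for Igfbp3, Igfbp4 and Irs1 below. Fig4 (0.935), Thnsl2 (0.934) and Zrsr2-ps1 (0.926) correlated best with it over the 16 astrocyte libraries.

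Igfbp3, the main carrier of IGFs in blood, was at 146, 140, 96.2 and 289 CPM in astrocytes with ENV, against 195, 175, 125 and 153 CPM with buffer. It was at 327, 373, 97.2 and 263 CPM with LPS, against 569, 462, 121 and 139 CPM with H2O. Library 4 was higher than its vehicle (log2 ratio 0.92 for both stimuli) and libraries 1, 2 and 3 lower, and neither change was called (0.06 ± 0.32, adjusted p = 0.928, and -0.28 ± 0.59, adjusted p = 0.846). The LPS change was -0.59 (adjusted p = 0.0160) with libraries 1 and 2 alone and 0.52 (adjusted p = 0.559) with 3 and 4 alone. Hs2st1 (0.901), Fst (0.871) and Pomgnt1 (0.831) followed it most closely over the astrocyte libraries. Fst encodes follistatin, an activin binder.

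Igfbp4 also differed between libraries. It was at 12.7, 4.15, 12.3 and 32.7 CPM in astrocytes with ENV, against 24.0, 6.12, 14.04 and 10.5 CPM with buffer. With LPS it was at 4.00, 4.72, 17.1 and 27.4 CPM, against 7.61, 9.16, 13.6 and 8.74 CPM with H2O. The ratio was highest in pair 4 for both stimuli (log2 1.64 with ENV and 1.65 with LPS) and below 0 in pairs 1 and 2. No change was called over all pairs (0.20 ± 0.60, adjusted p = 0.862, and 0.47 ± 0.61, adjusted p = 0.728), and that for LPS was -0.97 (adjusted p = 0.0235) with libraries 1 and 2 alone and 1.03 (adjusted p = 0.170) with 3 and 4 alone. Since libraries 3 and 4 of the ENV and LPS sets are so close to each other, the like values of pair 4 are not 2 separate observations.

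Igfbp7 was at 226, 389, 377 and 355 CPM in astrocytes with ENV, against 374, 479, 415 and 382 CPM with buffer. In LPS-treated astrocytes Igfbp7 was at 199, 311, 311 and 366 CPM, against 337, 448, 422 and 429 CPM with H2O. The groups overlapped, each pair was lower, and the changes were -0.28 ± 0.19 (adjusted p = 0.341) and -0.44 ± 0.20 (adjusted p = 0.258, or 0.0415 with the block). Fibroblasts and mural cells are also known sources of binding proteins. Their 14 or 15 listed markers summed to 1823 to 3445 CPM with ENV and 2833 to 11020 CPM with buffer, and to 1988 to 3671 CPM with LPS and 2985 to 10360 CPM with H2O. Their part in the binding protein values was not tested.

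**Figure D4:**
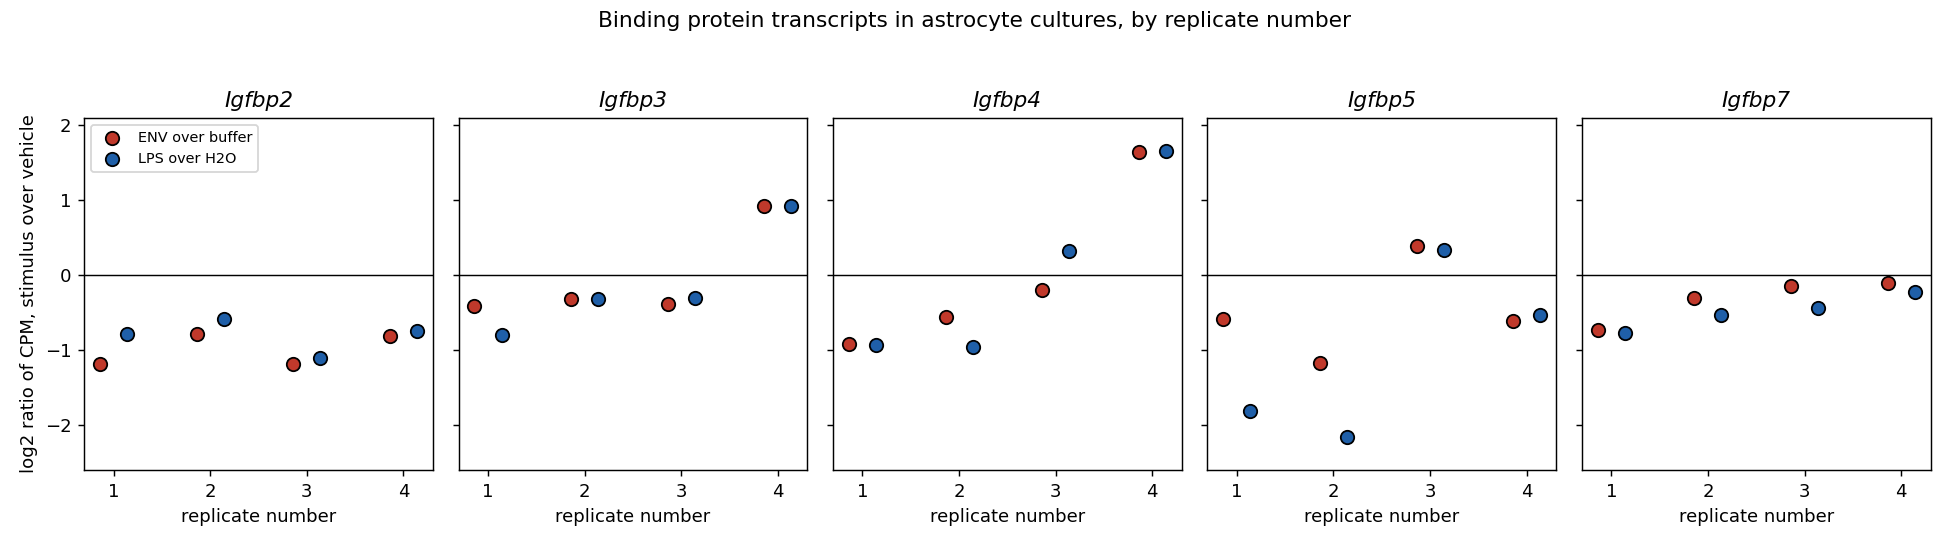
Log2 ratio of CPM, stimulus over vehicle, for 5 binding protein genes in each same-numbered pair of astrocyte libraries, with ENV over buffer in red and LPS over H2O in blue. Igfbp2 and Igfbp7 lie below 0 in all pairs, whereas Igfbp3 and Igfbp4 lie above 0 in pair 4 (0.92 and 1.64 with ENV) and Igfbp5 lies above 0 in pair 3.

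In microglia Igfbp3 was at 3.07, 5.71 and 4.68 CPM with ENV, against 1.55, 2.14 and 3.40 CPM with buffer. The groups overlapped, each pair was higher, and the change of 1.11 ± 0.36 missed the threshold (adjusted p = 0.0563) but passed it with the block (1.15 ± 0.26, adjusted p = 0.0203), with DESeq2 (0.0133) and without buffer library 3 (0.0137), and was at an adjusted p of 0.475 in the joint fit of the 4 microglial groups. Astrocyte markers in these libraries summed to 2794 to 3393 CPM with ENV and 1463 to 1759 CPM with buffer, and their part in the Igfbp3 value was not tested. Of the 11 astrocyte markers tested there, Glul alone was called higher, Slc1a3 was called lower and 9 were not called. Igfbp2, far higher in astrocytes, averaged 0.223 CPM in microglia with ENV and 0.384 CPM with buffer. At 4 to 15 counts a library it was too low to be tested there, and nothing about other cells is drawn from it. In LPS-treated microglia Igfbp3 was at 0.380, 0.574 and 9.03 CPM, against 0.757, 2.20 and 3.14 CPM with H2O. The sign rested on library 3, as the change was 1.02 ± 1.24 (adjusted p = 0.561), and -1.35 (adjusted p = 0.149) without pair 3. Igfbp4 was at 1.41, 5.12 and 9.17 CPM with ENV, against 8.56, 14.5 and 9.20 CPM with buffer (-0.85 ± 0.56, adjusted p = 0.291), and at 1.65, 2.69 and 0.446 CPM with LPS, against 2.90, 2.16 and 8.66 CPM with H2O (-1.20 ± 0.78, adjusted p = 0.281; 0.05 without pair 3). Igfbp5 and Igfbp7 were low in microglia, from 0.227 to 18.8 CPM and from 0.253 to 1.29 CPM over the 12 libraries. Neither was called with ENV (-0.30 ± 1.00 and 0.11 ± 0.30) or with LPS (1.13 ± 0.75 and -1.11 ± 0.65; edgeR adjusted p between 0.234 and 0.842 over the 4 tests).

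Irs1 and Irs2 encode the docking proteins through which the IGF and insulin receptors reach PI3K, and they parted in microglia. Irs2 was at 61.3, 73.5 and 70.2 CPM with ENV, against 24.2, 22.8 and 18.8 CPM with buffer, and the mean was 3.12 times that with buffer. It was at 80.8, 131 and 106 CPM with LPS, against 24.6, 30.9 and 28.3 CPM with H2O, 3.80 times as high. The groups did not overlap, each of the 3 pairs of either set was higher, and Irs2 rose by 1.84 ± 0.13 with ENV (adjusted p = 2.39e-04) and by 2.23 ± 0.19 with LPS (adjusted p = 0.00148). Both calls held on leaving out each library in turn (adjusted p up to 0.0158).

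Irs1 moved the other way in microglia with LPS. It was at 0.577, 1.53 and 1.91 CPM with ENV, against 2.83, 4.55 and 2.63 CPM with buffer, and at 0.228, 0.235 and 0.394 CPM with LPS, against 1.46, 1.38 and 1.48 CPM with H2O. Neither stimulated group overlapped its vehicle. With LPS Irs1 fell by 2.02 ± 0.39 on the log2 scale (adjusted p = 0.0141), a call lost without H2O library 1 or 2 or LPS library 1 or 2 (adjusted p between 0.0653 and 0.0866) and resting on 9 to 15 counts per LPS library. Without pair 3 it was -2.32 (adjusted p = 0.0123), and the LPS change of Irs2 was 2.21 (adjusted p = 0.00377). With ENV the change was -1.11 ± 0.43 (adjusted p = 0.0938, or 0.0495 with the block). Some summed markers of other cells were lower in each pair as well. Fibroblast and mural cell markers summed to 6.332, 5.378 and 14.13 CPM with LPS and 9.083, 15.69 and 60.32 CPM with H2O. Oligodendrocyte lineage markers summed to 4.635, 5.3 and 25.68 CPM with LPS and 15.62, 16.1 and 129.7 CPM with H2O. Endothelial sums were instead higher in each pair (193.9, 252.8 and 149.5 CPM with LPS, 102.5, 126.8 and 87.75 CPM with H2O). Astrocyte marker sums were higher in pairs 1 and 2 and lower in pair 3 (4949, 3109 and 1698 CPM with LPS, 2119, 2519 and 2020 CPM with H2O). With ENV the fibroblast and mural cell sums were 34.11 to 64.75 CPM, against 70.03 to 139.3 CPM with buffer, and the oligodendrocyte lineage sums 54.6 to 114.4 CPM, against 204 to 243.8 CPM. Astrocyte and endothelial sums were higher with ENV, at 2794 to 3393 CPM against 1463 to 1759 CPM, and 130.7 to 215.4 CPM against 72.49 to 81.58 CPM. H2O library 3 had the highest H2O sums of fibroblast and mural cell and of oligodendrocyte lineage markers. Irs1 had 58, 57 and 63 counts in H2O libraries 1, 2 and 3. The part of other cells in the Irs1 values was not tested.

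In astrocytes Irs2 fell with ENV. It was at 90.9, 117, 135 and 112 CPM with ENV, against 162, 185, 195 and 215 CPM with buffer, and fell by 0.71 ± 0.14 (adjusted p = 0.00977) in 4 of 4 pairs. It was at 84.4, 103, 128 and 127 CPM with LPS, against 139, 163, 207 and 208 CPM with H2O. Those groups did not overlap and the ratio was alike in the 4 pairs (log2 -0.66 to -0.72), but the change of -0.67 ± 0.19 was not called (adjusted p = 0.0851) unless the block (0.00319), DESeq2 (0.0151) or the joint fit (0.0179), with its close libraries counted separately, was used. The Irs2 response in microglia minus that in astrocytes was 2.55 ± 0.20 with ENV (adjusted p = 1.59e-05) and 2.88 ± 0.29 with LPS (adjusted p = 2.18e-04), and stayed called without any 1 library (adjusted p up to 0.00107). With buffer Irs2 was lower in microglia than in astrocytes (-2.73 ± 0.13, adjusted p = 1.49e-06), as with H2O (-2.17 ± 0.18, adjusted p = 4.66e-05), whereas the ranges of microglia with LPS (80.8 to 131 CPM) and astrocytes with LPS (84.4 to 128 CPM) overlapped.

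**Figure D5:**
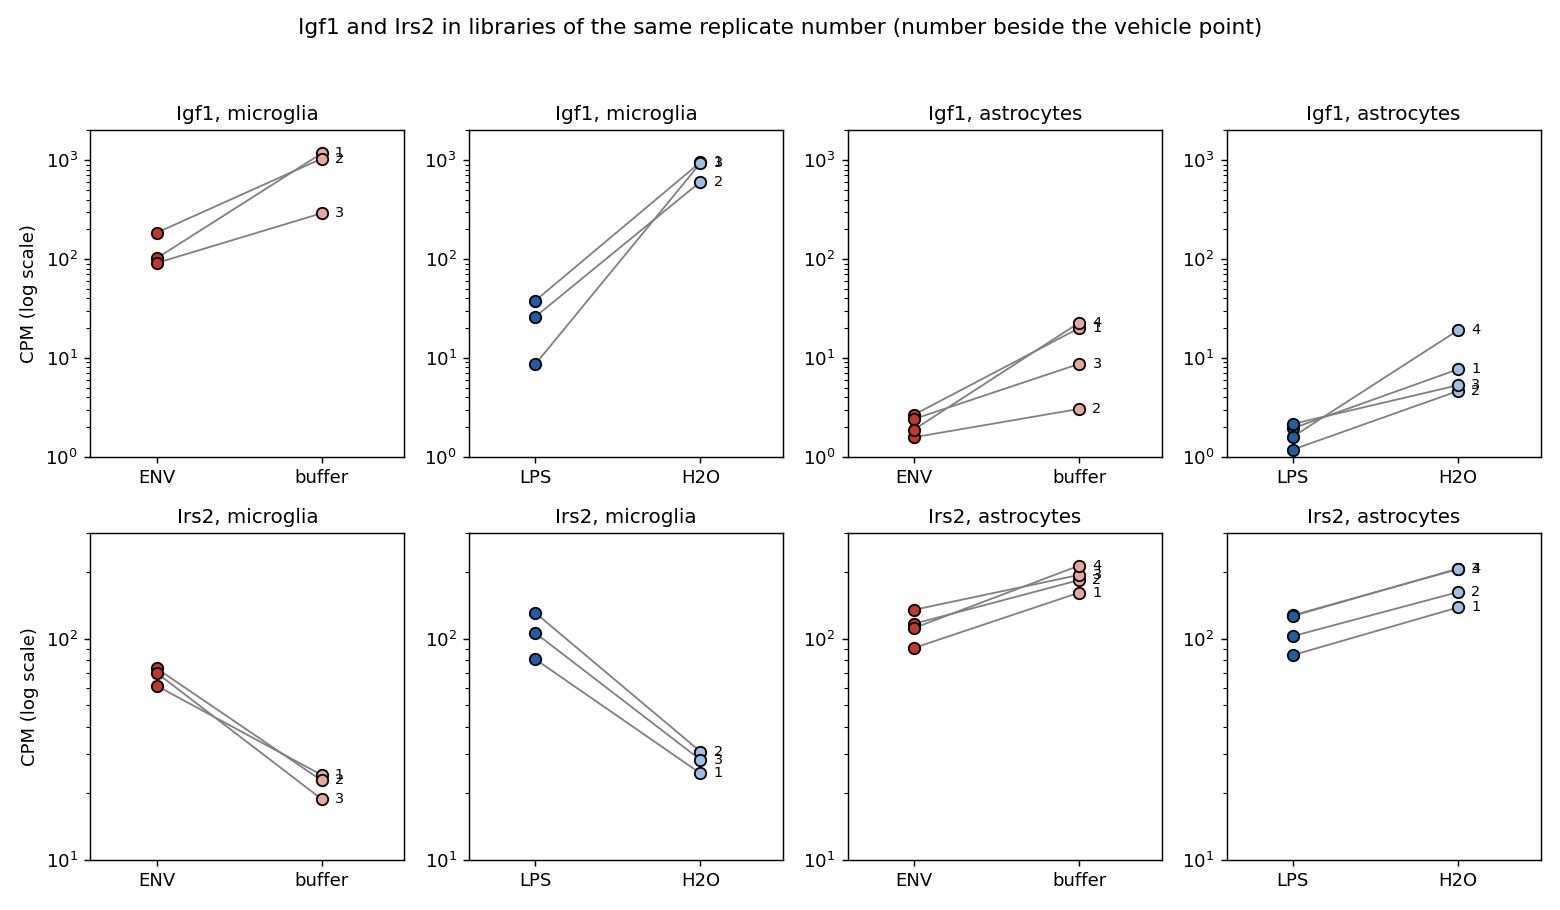
Igf1 (top) and Irs2 (bottom) CPM on a log scale, with lines joining libraries of the same replicate number, stimulus on the left and vehicle on the right of each panel. Igf1 is lower with the stimulus in all 14 pairs, and Irs2 is higher in the 6 microglial pairs and lower in the 8 astrocyte pairs.

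Astrocyte Irs1 was at 59.8, 67.3, 91.2 and 56.0 CPM with ENV, against 129, 129, 113 and 51.1 CPM with buffer. In LPS-treated astrocytes Irs1 was at 35.5, 40.9, 82.7 and 56.7 CPM, against 77.0, 104, 111 and 52.1 CPM with H2O. Library 4 was the lowest of both vehicle groups, pair 4 was the single one not lower with the stimulus, and the groups overlapped. The changes were -0.62 ± 0.31 (adjusted p = 0.208) and -0.66 ± 0.34 (adjusted p = 0.323). With ENV Irs1 was called without buffer library 4 (-0.86, adjusted p = 0.0201), and with LPS in libraries 1 and 2 alone (-1.27, adjusted p = 0.00685) but not in 3 and 4 alone (-0.19, adjusted p = 0.817). Irs1 was lower in microglia than in astrocytes with buffer (-4.63 ± 0.43) and with H2O (-5.40 ± 0.35).

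No IGF gene was called as different between ENV and LPS within a cell type, which does not show that the stimuli acted alike. None of 9 tested in microglia, Igf2 again left out, and none of 10 tested in astrocytes was called in the ENV response minus the LPS response, and 0% of all genes were called in either (0 of 13270 and 0 of 15496, edgeR). At an unadjusted p under 0.05 there were 937 and 76 genes, and DESeq2 called 67 and 0. Microglial Igf1 had a difference of 2.30 ± 0.81, with a 95% interval of 0.51 to 4.09 that leaves out 0 (edgeR, unadjusted p = 0.0167, adjusted p = 0.689). Irs2 had a difference of -0.36 ± 0.22 in microglia (95% interval -0.85 to 0.13) and of -0.05 ± 0.24 in astrocytes (95% interval -0.56 to 0.46). For Igfbp2 in astrocytes it was -0.19 ± 0.32.

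Genes around these 10 were read from 5 lists, to be set against the shares of all genes called above. Those given here without values were named after their values were seen. Among other IGF ligand, receptor and binding protein genes, 2 of 5 tested were higher (Htra1, Stc2) and 1 lower (Igf2r) in microglia with ENV, and 1 of 5 was higher with LPS (Stc2). In astrocytes 1 of 9 was higher (Pappa) and 2 lower (Igfbp6, Stc2) with ENV. With LPS 0 of 8 were called by edgeR. The list's median change was 0.20, 0.10, -0.08 and 0.12 in microglia with ENV, microglia with LPS, astrocytes with ENV and astrocytes with LPS, the order kept for the medians of the lists below. Igf2r, the receptor that clears Igf2 and sorts lysosomal enzymes, was at 9.85, 15.3 and 10.4 CPM in microglia with ENV, against 51.0, 70.7 and 16.1 CPM with buffer (-1.74 ± 0.48, adjusted p = 0.0329). Igfbp6, a binder that prefers Igf2, was at 9.002, 12.4, 16.6 and 15.6 CPM in astrocytes with ENV, against 19.1, 20.2, 35.3 and 37.6 CPM with buffer (-1.04 ± 0.27, adjusted p = 0.0333). In astrocytes with ENV Igf2r was not called (-0.08 ± 0.23, edgeR adjusted p = 0.856), and Igfbp6 was not tested in microglia.

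Of the receptor adaptors and RAS entry genes, 4 of 11 tested rose (Gab1, Grb2, Shc1, Sos1) and none fell in microglia with ENV, and 3 of 11 rose with LPS (Grb2, Shc1, Sos1). In astrocytes 2 of 13 rose (Grb2, Sos1) and 1 fell (Gab1) with ENV, and 1 of 13 fell with LPS (Gab1). The medians were 0.08, 0.39, 0.01 and 0.13. Sos1, the exchange factor that loads RAS, was at 154, 145 and 138 CPM in microglia with ENV, against 45.7, 50.9 and 35.1 CPM with buffer (1.94 ± 0.15, adjusted p = 3.32e-04). It rose by 1.84 ± 0.25 in microglia with LPS and by 0.32 ± 0.10 in astrocytes with ENV (adjusted p = 0.0496). Gab1, a docking protein that brings in PI3K and the phosphatase SHP2, rose in microglia with ENV and fell in astrocytes with both stimuli. It was at 109, 78.9 and 91.4 CPM in microglia with ENV, against 47.9, 50.2 and 48.6 CPM with buffer (1.14 ± 0.16, adjusted p = 0.00257). In astrocytes it averaged 65.6 ± 11.2 CPM with ENV and 122 ± 8.67 CPM with buffer (SD, n = 4 each; -0.88 ± 0.14, edgeR adjusted p = 0.00448), and 65.0 ± 5.29 CPM with LPS and 112 ± 13.5 CPM with H2O (-0.77 ± 0.12, edgeR adjusted p = 0.0122). The responses of Gab1 and Sos1 were called as higher in microglia than in astrocytes for both stimuli. The adaptor Grb2 rose in microglia with LPS (0.76 ± 0.17, adjusted p = 0.0198) and in astrocytes with ENV (0.36 ± 0.09, adjusted p = 0.0254).

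Within PI3K, AKT and mTOR signalling most of the 23 tested genes were not called: 3 rose in microglia with ENV (Akt2, Pik3cd, Rps6kb2) and 3 with LPS (Akt2, Eif4ebp1, Rps6kb2), 1 rose in astrocytes with ENV and none was called with LPS. The medians were 0.11, 0.12, 0.14 and 0.10. Pik3cd, the PI3K catalytic subunit of leukocytes, rose with ENV in microglia (1.14 ± 0.15, adjusted p = 0.00207), and Rps6kb2, an S6 kinase, with ENV (0.67 ± 0.15) and LPS (0.92 ± 0.13). Eif4ebp1, a repressor of cap-dependent translation, rose with LPS (0.87 ± 0.21, adjusted p = 0.0247). In astrocytes with ENV the single call was Eif4e, the cap-binding factor (0.33 ± 0.09, adjusted p = 0.0422).

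Among FoxO factors and brakes on IGF and insulin signalling, 5 of 16 tested rose (Ddit4, Inppl1, Ptpn1, Socs1, Socs3) and 2 fell (Sesn1, Socs6) in microglia with ENV, and 4 rose (Ptpn1, Socs1, Socs3, Trib3) and 3 fell (Sesn1, Socs2, Socs6) with LPS. In astrocytes 3 of 17 rose, among them Socs1 and Trib3, and 3 fell (Inppl1, Sesn1, Sesn3) with ENV, and 1 rose (Trib3) and 1 fell (Sesn3) with LPS. The medians were 0.27, 0.14, 0.24 and 0.24. Socs3, a cytokine-induced inhibitor that also binds insulin receptor substrates, was at 134, 104 and 119 CPM in microglia with ENV, against 3.17, 3.57 and 5.09 CPM with buffer (5.11 ± 0.25, adjusted p = 1.20e-04). With LPS it was at 155, 127 and 444 CPM, against 1.92, 1.94 and 3.77 CPM with H2O (6.89 ± 0.69, adjusted p = 0.00225). The phosphatase gene Ptpn1, whose product takes phosphate off the insulin and IGF receptors, rose by 1.29 ± 0.14 with ENV and 1.19 ± 0.15 with LPS. Socs6 (-1.81 ± 0.22 and -1.54 ± 0.26) and the stress sensor Sesn1 (-0.94 ± 0.16 and -2.01 ± 0.49) fell with both. In astrocytes Sesn3, a FoxO target, fell with ENV (-0.98 ± 0.19, adjusted p = 0.0107) and LPS (-1.01 ± 0.18, adjusted p = 0.0220), while Socs1 rose (1.55 ± 0.37) and Sesn1 fell (-0.88 ± 0.20) with ENV. The list of the Igf2 locus and mRNA-binding proteins had 1 of 3 higher, H19, and 1 lower, Igf2bp2, in microglia with ENV, 0 of 2 called with LPS, and 0 of 5 in astrocytes with either stimulus (edgeR). Its medians were 0.26, -0.75, -0.23 and 0.31.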

How the data were processed

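The deposited files hold raw counts, whole numbers per gene symbol and library. The submitters' processing notes name mRatBN7.2 as the build and HISAT2 and StringTie (1.3.3b) as tools. Their settings, annotation and strand of counting: not given in the sources used here. Samples were grouped by their titles. CPM were counts over the library total. Each stimulus was tested against its own vehicle with edgeR 4.0.16 (R 4.3.3, limma 3.58.1; TMM, filterByExpr, robust quasi-likelihood F test, 2-sided, Benjamini-Hochberg over all genes tested); differences between responses were interaction terms, over symbols shared by the tables. The fits were tested on simulated data. Alternatives were DESeq2 1.42.0, its size factors, no filter, a joint fit, a replicate block, 1 library left out, and pairs left out. Same-numbered libraries correlated in their deviations (r 0.26 to 0.637 in every pair, other pairs -0.559 to 0.531). Astrocyte LPS library 2 correlated as well with H2O library 1 (0.531) as with H2O library 2 (0.529). The numbers, taken from the titles, were used as pairs within a cell type, but the labels do not state a pairing. The main fits had no block for them. Named genes of the lists were, per list and comparison, at most 2 called genes in each direction, those with the largest changes whose groups did not overlap and whose higher mean reached 10 CPM. Totals of 23742228 to 42724111 counts put the floor of 3 counts at 0.0702 to 0.126 CPM a library. The members and lists were chosen with earlier results of these data known. Promoter sequences are from RefSeq (GRCr8), with no entry used for Irs2. Some genes of the lists are not reported here.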

Additional observations from a re-analysis of the deposited data

Results flagged for a closer look

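The response of Irs2 differed between the cell types for both stimuli, by the test of the difference itself: microglia minus astrocytes was 2.55 on the log2 scale with ENV and 2.88 with LPS (edgeR adjusted p = 1.59e-05 and 2.18e-04), higher in 6 of 6 microglial pairs and lower in 8 of 8 astrocyte pairs. The response of Igf1 to LPS also differed, by -2.45 (adjusted p = 0.0493), a call that leaving out most single libraries ended. Cell type goes with the isolation, the days in culture and the count table, which cannot be told apart. In 40 tests of the 10 genes in each of the 4 astrocyte groups, no library lay apart from the other 3 by Dixon's criterion for 4 samples.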

How the results depend on the processing

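Of 480 values of the IGF genes under other settings, 441 kept their direction and side of the threshold, 4 lost and 21 gained a call, and 14 changed sign, 1 of them with a call (astrocyte Igfbp4 with LPS, libraries 1 and 2 alone). Of 918 with 1 library left out, 823 kept both, 28 lost and 6 gained a call, and 61 changed sign, 0 with a call. The causes were not tested. Values of the other lists under these settings are not reported here. Depth limits Igf2 and the microglial Igfbp2.

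With the replicate block, 4 IGF genes were called in microglia with ENV, 4 in astrocytes with LPS and 2 in the ENV difference between cell types. All genes called were then 5036 (microglia, ENV), 3707 (microglia, LPS), 4348 (astrocytes, ENV), 2611 (astrocytes, LPS), 1 (microglia, ENV minus LPS), and 3314 and 3029 in the ENV and LPS differences between cell types. The block gave Igfbp5 0.24 in microglia with ENV, Igfbp3 -0.079 in microglia with LPS, and Igfbp3 -0.047 and Igfbp4 -0.0024 in astrocytes with ENV. Numbers 1 to 3 also occur in the vehicle groups of both cell types, where nothing says that they share a source: same-numbered libraries correlated by 0.0894, 0.092 and 0.193 with buffer and by 0.0344, 0.00309 and 0.0932 with H2O, and not every library correlated best with its own number. A replicate block on these numbers, chosen after seeing the data, called 8811 genes and 9 IGF genes with buffer and 7998 and 8 with H2O, and left each IGF gene's direction and call as it was.

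With DESeq2 2049 genes and 3 IGF genes were called in astrocytes with LPS, and 67 genes in microglia for ENV minus LPS. Between cell types DESeq2 called 2 IGF genes for ENV and 2720 genes for LPS. Its count of all genes for ENV is not reported here, so those 2 IGF genes are not set against a background. The joint fit, which counts the close astrocyte libraries 3 and 4 of both sets separately, called 1736 of 15496 genes and 3 of 10 IGF genes in astrocytes with LPS. Libraries 1 and 2 alone, close to each other in each group, called 2970 genes and 6 IGF genes, where all 4 pairs called 785 and 1. Calls over all genes thus rose as well. In that split Igf1r was at -0.051 and Igfbp4 at -0.97. Libraries 3 and 4 alone gave Igfbp3 0.52. DESeq2 size factors, no filter and leaving out pair 3 each left 1 IGF gene in the LPS difference between cell types. Igfbp4 between the buffer groups was -0.0055 with DESeq2 size factors and -0.0060 with DESeq2.

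Without microglial pair 3, 8 genes were called for ENV minus LPS, where Igfbp4 was -0.98. With LPS in microglia Igfbp3 was then -1.35 and Igfbp4 0.051, and between cell types the LPS response of Igf1r was -0.14 and that of Igfbp3 -1.12.

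With 1 library left out, genes called ranged from 2466 to 5282 (microglia, ENV), 1351 to 3986 (microglia, LPS), 1487 to 2869 (astrocytes, ENV), 236 to 681 (astrocytes, LPS) and 0 to 4 (microglia, ENV minus LPS). IGF genes called ranged from 1 to 3 (microglia, ENV), 0 to 1 (astrocytes, LPS) and 1 to 2 in each difference between cell types. Sign changes lay within these ranges. In microglia with ENV they were -0.81 to 1.58 for Igfbp5 and -0.050 to 0.24 for Igfbp7, and with LPS -1.77 to 1.52 for Igfbp3. In astrocytes with ENV they were -0.34 to 0.24 for Igfbp3 and -0.47 to 0.62 for Igfbp4, and with LPS -0.56 to 0.13 and -0.15 to 0.77. For ENV minus LPS in microglia they were -0.25 to 0.36 (Igf1r), -0.46 to 2.80 (Igfbp3), -0.39 to 0.83 (Igfbp4) and -2.44 to 0.36 (Igfbp5). For ENV minus LPS in astrocytes they were -0.88 to 0.058 (Igf1), -0.095 to 0.60 (Igfbp3), -0.95 to 0.36 (Igfbp4), -0.088 to 0.62 (Igfbp5), -0.0096 to 0.30 (Igfbp7), -0.21 to 0.31 (Irs1) and -0.17 to 0.052 (Irs2). In the ENV difference between cell types they were -0.28 to 0.53 (Igf1), -0.11 to 0.37 (Igf1r) and -0.40 to 2.00 (Igfbp5), and in that for LPS -0.011 to 0.33 (Igf1r) and -1.55 to 1.86 (Igfbp3). Igfbp4 between the buffer groups ranged from -0.24 to 0.42.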
